A study of Drosophila melanogaster with 6 samples.

Results

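The vacuolar ATPase (V-ATPase) genes of Drosophila melanogaster were examined in whole adult heads at 25 days (aged) and at 2 days (young). They were taken as the genes whose symbol starts with Vha in the platform's probe table, counting only probe sets with 1 gene symbol. This gave 32 probe sets for 31 genes, of 11982 genes in the table. Each gene was read through the probe set with the highest mean over all 6 arrays, and only Vha16-1 had a choice to make. Both ages carried P{GawB}elavC155 in a strain labelled W*. That insertion is an enhancer trap at the neuronal gene elav that expresses the yeast activator GAL4; heads without it were not compared. Biotin-labelled material from total RNA was read on Affymetrix arrays, 3 per age. The labels give neither the sex of the flies nor whether replicate arrays stand for separate collections of flies, so the p-values below speak only for array-to-array spread, technical spread included. The number of arrays limits the precision.

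The V-ATPase is a rotary proton pump of lysosomes, endosomes, secretory granules and synaptic vesicles, and in some epithelia of the plasma membrane. Its cytosolic V1 sector (subunits A to H) hydrolyses ATP and turns a central stalk, and its V0 sector (a, c, c'', d and e) is the membrane part through which protons pass. In neurons the proton gradient powers the loading of transmitter into synaptic vesicles, and in lysosomes it keeps the degradative enzymes at an acid pH. Most subunits of the fly are encoded by a broadly expressed gene and by paralogues with narrower expression, several of them mainly in the testis. Of 34 Vha genes considered, 3 had no probe set under such a symbol and were not analysed here as members. These were Vha68-1 and Vha68-2, which encode the catalytic A subunit, and VhaM8.9, which the probe table lists as ATP6AP2. Without Vha68-1 and Vha68-2 the only A subunit gene read was the dim paralogue Vha68-3.

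Levels are given as log2 RMA values, where 1 unit is a doubling. Probe sets bind their targets with different strength, so a level was placed only by its rank on the array, and 4.92, the median of all probe sets, was used to set dim genes apart. Array medians lay between 4.85 and 4.93. Arrays resembled each other closely, with a Pearson's r of 0.984 to 0.998 across probe sets (not independent replicates). The lists of cell type markers checked the tissue: 4 of 4 measured neuronal genes, 3 of 3 photoreceptor genes and 3 of 3 glial genes lay above the median level, and 6 of 6 male germ line genes lay below it. Only 1 of 3 Malpighian tubule genes and 2 of 3 midgut genes lay below it, so this level does not by itself separate head genes from others. Young arrays stood apart on some of these lists. For young replicate 2, the summed male germ line signal was 230.7, against 52.5 to 53.8 on the aged arrays and 53.3 to 59.5 on the other young arrays. Its summed midgut signal was 668, against 198.8 to 212.4 on the aged arrays and 194.2 to 206.4 on the other young arrays. The yolk protein genes Yp1 and Yp2, known from the fat body of females, spread widely among the young arrays. Yp1 read 6.05, 6.47 and 5.87 on the aged arrays, against 4.02, 7.76 and 10.17 on the young arrays, and Yp2 read 4.21, 4.45 and 4.24, against 3.95, 5.24 and 8.54, highest on young replicate 3. The part of these signals in the V-ATPase values was not tested.

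Levels were lower in aged heads for 5 of the 31 V-ATPase genes and higher for 0. The 5 were Vha44, Vha14-1, Vha55 and Vha26, all of the V1 sector, and the accessory gene VhaAC45RP. They fell by 31.4%, 19.5%, 18.7%, 16.9% and 20.7%, in that order. Of the V-ATPase genes, 16.1% were thus lower, against 10.7% lower and 15.8% higher among all 11982 genes by the same rule (limma, Benjamini-Hochberg adjusted p under 0.05 over all probe sets). On 16 of the 31 all aged arrays lay below all young arrays, where 21% of all genes did, and on 2 they lay above, where 26.5% of all genes did. At an unadjusted limma p under 0.05, 13 of the 31 were lower and 1 higher, against 18% and 23.3% of all genes. With a trended robust prior 10 were lower and 1 higher after adjustment, against 12.7% and 18.6% of all genes. The count of lower genes was 2 of 31 without aged replicate 1 or without aged replicate 2, against 6.23% and 6.6% of all genes. With _s_at and _x_at probe sets left out it was 2 of 25, against 9.87%. Without aged replicate 3 or young replicate 3 it was 3 of 31, against 7.52% and 7.26%. Where only 2 genes were lower, their share was thus not above that of all genes by any clear margin. In whole heads, fewer cells of a type and less RNA per cell cannot be told apart.

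The genes fell into a bright and a dim set with a wide gap. The 18 bright genes had mean levels of 7.19 to 12.47, and 13 dim genes had 2.91 to 4.32, below the median of all probe sets. All 5 calls were among the 18 bright genes, of which 27.8% were lower, against 14.1% of the 7537 genes at or above the median level, and 0 were higher, against 23%. On 13 of the 18, all aged arrays lay below all young arrays, against 22.7% of genes at that level, and on 2 of the 18 all aged arrays lay above, against 38.1%. The median difference of the 18 was -0.18, while that of all genes at or above the median level was 0.07 and that of all genes was -0.0031. Most of these differences were small, and 13 of the 18 genes did not pass.

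**Figure D1:**
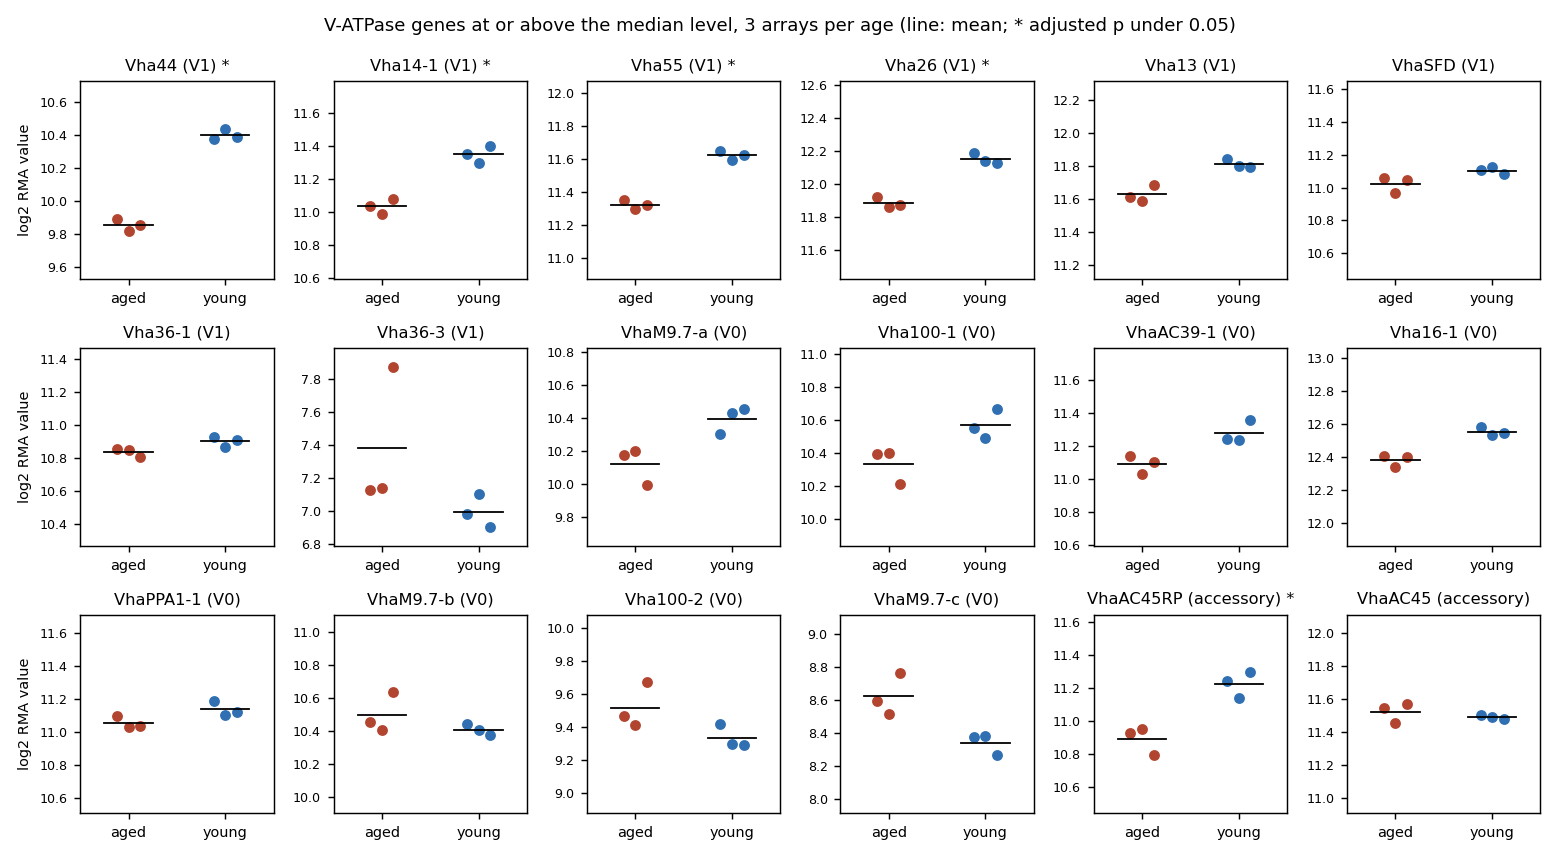
Log2 RMA value (vertical axes, each spanning the same range of log2 units) of the 18 V-ATPase genes at or above the median level on each of the aged (left, red) and young (right, blue) arrays, with the mean as a line and the sector in brackets. The aged arrays of Vha44 lie between 9.82 and 9.89, below its young arrays at 10.37 to 10.43, and Vha36-3 has 1 aged array far above the others.

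In the V1 sector, 7 main subunit genes were measured, and 4 of them fell while 3 did not pass. Of all genes at or above the median level, 14.1% fell and 23% rose. The steepest fall was that of Vha44 (CG8048), which encodes subunit C, the clamp between the V1 stalks and V0 that is released when the pump comes apart. Its values were 9.89, 9.82 and 9.85 on the aged arrays, against 10.37, 10.43 and 10.39 on the young arrays. The ages were well separated, and the difference of -0.54 ± 0.06 (log2, ± SE, n = 3 arrays per age) passed with an adjusted p of 0.00151. Its 95% interval ran from -0.69 to -0.40. It is also the only V-ATPase gene that passed under each of the 15 other settings in which it was tested, with differences of -0.59 to -0.53.

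The B subunit, which shares the nucleotide-binding ring with the catalytic A subunit, is encoded by Vha55 (CG17369). It read 11.35, 11.30 and 11.32 on the aged arrays, against 11.65, 11.59 and 11.62 on the young arrays, without overlap. The difference was -0.30 ± 0.06 (adjusted p = 0.0131). Vha14-1 (CG8210) encodes subunit F of the central stalk, the rotating shaft. Its aged arrays read 11.04, 10.99 and 11.08, against 11.35, 11.30 and 11.40 in young heads, and it fell by 0.31 ± 0.06 on the log2 scale (adjusted p = 0.0138). Vha26 (CG1088) encodes subunit E, which with subunit G forms the peripheral stalks. Its values of 11.92, 11.86 and 11.87 in aged heads lay below 12.19, 12.14 and 12.13 in young heads, a difference of -0.27 ± 0.06 (adjusted p = 0.0204). Leaving out aged replicate 2 ended the calls of Vha55 (adjusted p = 0.0578), Vha14-1 (0.0609) and Vha26 (0.0796), and leaving out aged replicate 1 ended those of Vha14-1 (0.0577) and Vha26 (0.0624). The call of Vha26 was also lost without aged replicate 3 (0.0623) or young replicate 3 (0.0518). The probe sets of Vha44, Vha55 and Vha26 have IDs ending in _s_at, which can be shared between genes. The same holds for Vha100-1, Vha100-2 and VhaAC45, described below.

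The other V1 main genes had smaller differences with the same sign. Vha13, of subunit G, read 11.61, 11.59 and 11.68 in aged heads, against 11.84, 11.80 and 11.79 in young heads. Its difference of -0.18 ± 0.06 missed the threshold (adjusted p = 0.0800). VhaSFD encodes subunit H, which couples ATP hydrolysis to the assembled pump. It had values of 11.06, 10.97 and 11.04 in aged heads and 11.10, 11.13 and 11.08 in young heads (-0.08 ± 0.06, adjusted p = 0.403). Vha36-1, of the central stalk subunit D, had 10.86, 10.85 and 10.81, against 10.93, 10.87 and 10.91 (-0.06 ± 0.06, adjusted p = 0.498). In all 3 the aged arrays lay below the young arrays, as in 22.7% of genes at or above the median level. The 95% intervals of VhaSFD (-0.23 to 0.07) and Vha36-1 (-0.21 to 0.08) nevertheless include 0. The median difference over the 7 genes was -0.27.

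In the V0 sector, 0 of 7 main subunit genes passed in either direction. By unadjusted limma p under 0.05, 4 were lower and 0 higher, against 19.9% and 33.4% of the genes at or above the median level. The membrane ring that rotates against subunit a is built from the c subunit, encoded by Vha16-1 (CG3161). Its probe set was the brightest of all V-ATPase probe sets, in the top 1% of the array, and read 12.41, 12.34 and 12.40 in aged heads, against 12.59, 12.53 and 12.55 in young heads. The difference was -0.17 ± 0.06 (adjusted p = 0.0886). A second probe set of Vha16-1 stood at -0.04 ± 0.11 with overlapping ages (adjusted p = 0.809), so the 2 readings of this gene do not give the same picture. VhaPPA1-1, of the related c'' subunit, read 11.10, 11.03 and 11.04 in aged heads and 11.19, 11.10 and 11.12 in young heads (-0.08 ± 0.06, adjusted p = 0.41). VhaAC39-1 encodes subunit d, which joins the rotor of V0 to the central stalk. It had 11.14, 11.03 and 11.10 in aged heads, against 11.24, 11.23 and 11.36 in young heads (-0.19 ± 0.07, adjusted p = 0.0991).

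Subunit a is the fixed part of V0 that lines the path of the protons, and its isoforms direct the pump to different membranes. Vha100-1 (CG1709) is the isoform known from fly neurons, where it acts at synaptic vesicles. It read 10.40, 10.40 and 10.21 in aged heads, against 10.55, 10.50 and 10.67 in young heads (-0.23 ± 0.08, adjusted p = 0.0870). Vha100-2 (CG18617), another widely expressed isoform, read 9.47, 9.41 and 9.67, against 9.42, 9.30 and 9.29 (0.18 ± 0.09, adjusted p = 0.188). The aged arrays of Vha100-1 lay below all young arrays, while those of Vha100-2 overlapped the young arrays by 1 array. For both genes aged replicate 3 was the most extreme aged array, and without it the differences were -0.17 and 0.10.

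Subunit e is a small membrane protein of V0 with 4 genes on the array. VhaM9.7-a read 10.18, 10.20 and 9.99 in aged heads, against 10.30, 10.43 and 10.46 in young heads (-0.27 ± 0.08, adjusted p = 0.0545). VhaM9.7-b read 10.45, 10.41 and 10.63, against 10.44, 10.40 and 10.37, with overlapping ages (0.09 ± 0.08, adjusted p = 0.453). VhaM9.7-c, a paralogue of intermediate level, read 8.59, 8.51 and 8.76, against 8.37, 8.38 and 8.27 (0.28 ± 0.08, adjusted p = 0.0509). VhaM9.7-a and VhaM9.7-c thus missed the threshold narrowly, with opposite signs and without overlap of the ages. VhaM9.7-a was lower under 7 of 16 other settings and VhaM9.7-c higher under 4 of 16.

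Set side by side, the mean over the 7 V1 main genes was 11.10, 11.05 and 11.09 on the aged arrays, against 11.35, 11.32 and 11.33 on the young arrays. The mean over the 7 V0 main genes was 10.73, 10.69 and 10.72 in aged heads, against 10.82, 10.79 and 10.83 in young heads. Both means were lower on every aged array than on any young array. The same held for the mean over the 13 dim genes, which are near background. It was 3.44, 3.38 and 3.39 in aged heads, against 3.52, 3.52 and 3.53 in young heads, so this separation is not particular to the main genes. The differences between the ages were -0.25 (V1), -0.10 (V0) and -0.12 (dim genes). The V1 mean minus the V0 mean was 0.37 ± 0.0043 in aged heads and 0.52 ± 0.02 in young heads (SD, n = 3 arrays each). Of the V1 and V0 main genes, 4 of 7 and 0 of 7 were lower, against 14.1% of genes at or above the median level. This contrast in calls depends on the setting. With a trended robust prior, Vha13 of V1 and Vha100-1, Vha16-1, VhaAC39-1 and VhaM9.7-a of V0 also passed as lower, where 12.7% of all genes were lower. All aged arrays lay below all young arrays in 7 of 7 V1 and 5 of 7 V0 main genes, against 22.7% of genes at or above the median level. These counts and means describe the genes measured here, and the difference between the sectors was not tested. Leaving out the probe sets ending in _s_at or _x_at removes Vha44, Vha55 and Vha26 from V1 and Vha100-1 and Vha100-2 from V0. The V1 median was then -0.13 over 4 genes, with -0.17 for V0 over 5.

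**Figure D2:**
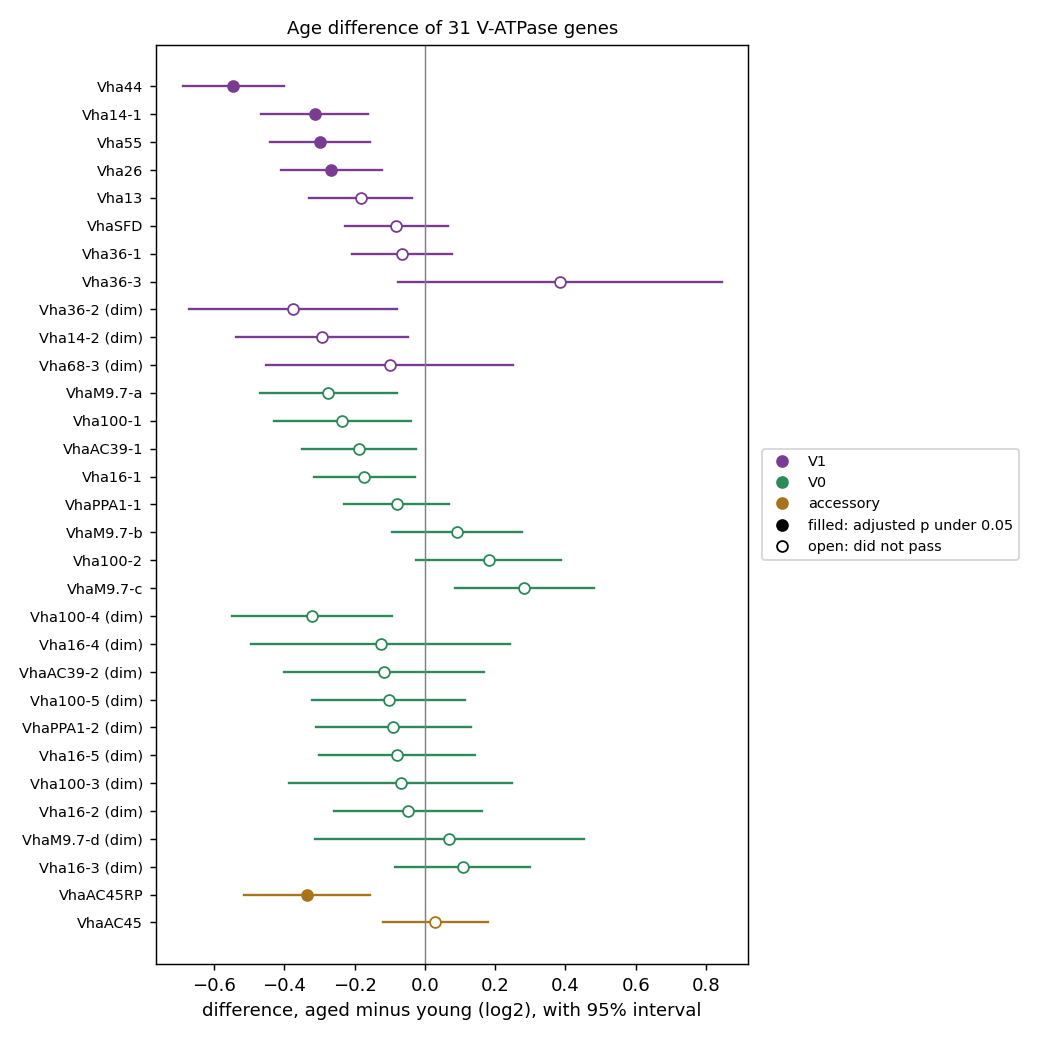
Difference, aged minus young, on the log2 scale (horizontal axis) with its 95% interval for each of the 31 V-ATPase genes (rows), ordered by sector, with dim genes marked; filled points passed at an adjusted p under 0.05. The filled points are 4 V1 genes and VhaAC45RP, between -0.54 and -0.27, and no V0 point is filled. With a trended robust prior, not drawn here, Vha100-1, Vha16-1, VhaAC39-1 and VhaM9.7-a of V0 also passed as lower.

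Accessory proteins assist the assembly and sorting of the pump. VhaAC45RP (CG31030), which has been described in flies as a V-ATPase accessory protein specific to neurons, read 10.93, 10.95 and 10.79 in aged heads, against 11.24, 11.14 and 11.30 in young heads. The ages did not overlap, and the gene fell by 0.33 ± 0.08 on the log2 scale (adjusted p = 0.0202). VhaAC45 (CG8029), the widely expressed gene of this pair, read 11.55, 11.45 and 11.57, against 11.51, 11.49 and 11.48. Its ages overlapped, with a difference of 0.03 ± 0.06 (adjusted p = 0.784). ATP6AP2, the accessory gene outside the naming rule, differed by -0.0013 ± 0.07 (adjusted p = 0.991). The call of VhaAC45RP was lost without aged replicate 1 (adjusted p = 0.0611), aged replicate 3 (0.0645) or young replicate 3 (0.0677), while the difference stayed between -0.38 and -0.29.

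Among subunits with more than 1 bright gene, the balance between paralogues was read as the log2 difference between their probe sets on each array. Only its change with age can be read, since levels of different probe sets are not comparable. Of the 6 such pairs, Vha100-1 minus Vha100-2 was 0.54 to 0.99 on the aged arrays, against 1.13 to 1.38 on the young arrays, a difference of -0.42 between the ages. VhaM9.7-a minus VhaM9.7-c was 1.23 to 1.69 in aged heads, against 1.93 to 2.19 in young heads, a difference of -0.56. VhaAC45 minus VhaAC45RP was 0.50 to 0.77 in aged heads, against 0.19 to 0.35 in young heads, a difference of 0.36. Against its paralogue, each of Vha100-1, VhaM9.7-a and VhaAC45RP thus stood lower on every aged array than on any young array. The other 3 pairs, Vha36-1 with Vha36-3, VhaM9.7-a with VhaM9.7-b and VhaM9.7-b with VhaM9.7-c, gave differences between the ages of -0.45, -0.37 and -0.19. In these the ages did not overlap either, so the separation held in all 6 pairs and is not particular to the 3 genes named above. Its share among other pairs of genes was not worked out. A two-sided exact permutation test over the arrays gave p = 0.1 for each pair (0.1 after adjustment over the 6), which is the smallest value that 3 against 3 arrays allow, so this test cannot pass the threshold. The pairs were set up after the values were seen, and the probe sets of Vha100-1, Vha100-2 and VhaAC45 have IDs ending in _s_at.

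Some markers of neurons and of other head cells also differed between the ages. The lists are short, and of all genes at or above the median level 14.1% fell and 23% rose. Of 4 measured neuronal genes, 2 fell and 0 rose, with a median difference of -0.27. Rdl (-0.92) and brp (-0.44) fell, while elav (-0.09, adjusted p = 0.391) and nSyb (0.30, adjusted p = 0.0984) did not pass. Their summed level was 2456 to 2828 in aged heads and 2769 to 2971 in young heads. Of 3 glial genes, 1 fell, with a summed level of 5734 to 6392, against 7087 to 7668. The gene that fell, Gs2 (-0.38), is the brightest and carries most of that sum, while repo (-0.03) and moody (-0.01) hardly differed. Of 3 photoreceptor genes, 1 fell, with sums of 29006 to 30085, against 30048 to 30781. Of 3 muscle genes, 2 fell, with sums of 326 to 552, against 926 to 1122. Of 4 haemocyte genes, 2 rose and 1 fell, with sums of 1054 to 1286, against 1046 to 1147, and of 5 fat body genes 0 passed, with sums of 16257 to 19744, against 18944 to 21070. Neuronal, glial, photoreceptor and fat body sums were lowest on aged replicate 3, and the haemocyte sum was highest there. That array had the lowest value of Vha100-1, VhaM9.7-a, VhaAC45RP and Vha36-1, and the highest value of 5 other bright V-ATPase genes. The 3' minus 5' difference of control probe sets is a measure of labelling and, for the fly transcripts, of RNA quality. For 3 fly transcripts it was 1.28, 1.32 and 1.26 in aged heads, against 1.74, 1.95 and 1.92 in young heads, lower by 0.58. For 4 bacterial spike-ins it was 0.99, 0.86 and 1.02, against 1.76, 2.05 and 1.75, lower by 0.90. The exact permutation p was 0.1 for both, the smallest value that 3 against 3 arrays allow. Labelling and age thus cannot be told apart on these arrays. The part of cell makeup and labelling in the V-ATPase differences was not tested.

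The 16 other paralogues included 3 bright genes, VhaAC45RP and VhaM9.7-c, described above, and Vha36-3. Vha36-3, a paralogue of the central stalk subunit D, read 7.13, 7.14 and 7.87 in aged heads, against 6.98, 7.10 and 6.90 in young heads (0.38 ± 0.20, adjusted p = 0.209). The aged arrays lay above the young arrays, but aged replicate 3 carried most of the difference, which was 0.14 without it.

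The 13 dim genes were 3 of V1 and 10 of V0, and 0 of them passed in either direction (at an unadjusted limma p under 0.05, 3 lower, or 23.1%, and 0 higher, against 18% and 23.3% of all genes). That share of lower genes is near the share among all genes. Of those 11982 genes, 7537 lay at or above the median level, where 19.9% were lower and 33.4% higher at this p. Shares among genes below the median level alone were not worked out, so neither count is read as a trait of these 13 genes. Their differences ran from -0.38 to 0.11. Levels this low are near background, so real differences would be compressed. Vha36-2, of subunit D, read 3.69, 3.83 and 3.44 in aged heads, against 3.90, 4.22 and 3.97 in young heads (-0.38 ± 0.13, adjusted p = 0.0757). Vha100-4, which lies next to Vha100-2 in RefSeq's order of protein-coding genes (Release 6 plus ISO1 MT), read 3.26, 3.25 and 3.22, against 3.66, 3.35 and 3.68 (-0.32 ± 0.10, adjusted p = 0.0542). Vha14-2, of subunit F, read 2.88, 2.74 and 2.73, against 2.90, 3.27 and 3.06 (-0.29 ± 0.10, adjusted p = 0.0881). In these 3 of 13 genes (23.1%, against 21% of all genes) the aged arrays lay below the young arrays without overlap, although the nearest arrays of the ages were less than 0.1 apart in each.

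The other 10 dim genes had overlapping ages. The c subunit paralogues Vha16-2, Vha16-3, Vha16-4 and Vha16-5 differed by -0.05, 0.11, -0.13 and -0.08, and of these Vha16-2 and Vha16-3 are neighbours. The a subunit paralogues Vha100-3 and Vha100-5 differed by -0.07 and -0.10, Vha68-3 of subunit A by -0.10, VhaPPA1-2 of c'' by -0.09, VhaAC39-2 of d by -0.12 and VhaM9.7-d of e by 0.07. Young replicate 2, the array with male germ line and midgut signal, was the highest of all 6 arrays for Vha36-2, Vha14-2, Vha68-3, Vha100-5 and VhaM9.7-d, and the lowest for Vha100-3, Vha16-3 and Vha16-4. VhaM9.7-d read 4.37 there, against 3.73 and 3.78 on the other young arrays, and without young replicate 2 its difference was 0.27 (adjusted p = 0.0423). The part of that signal in these values was not tested.

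**Figure D3:**
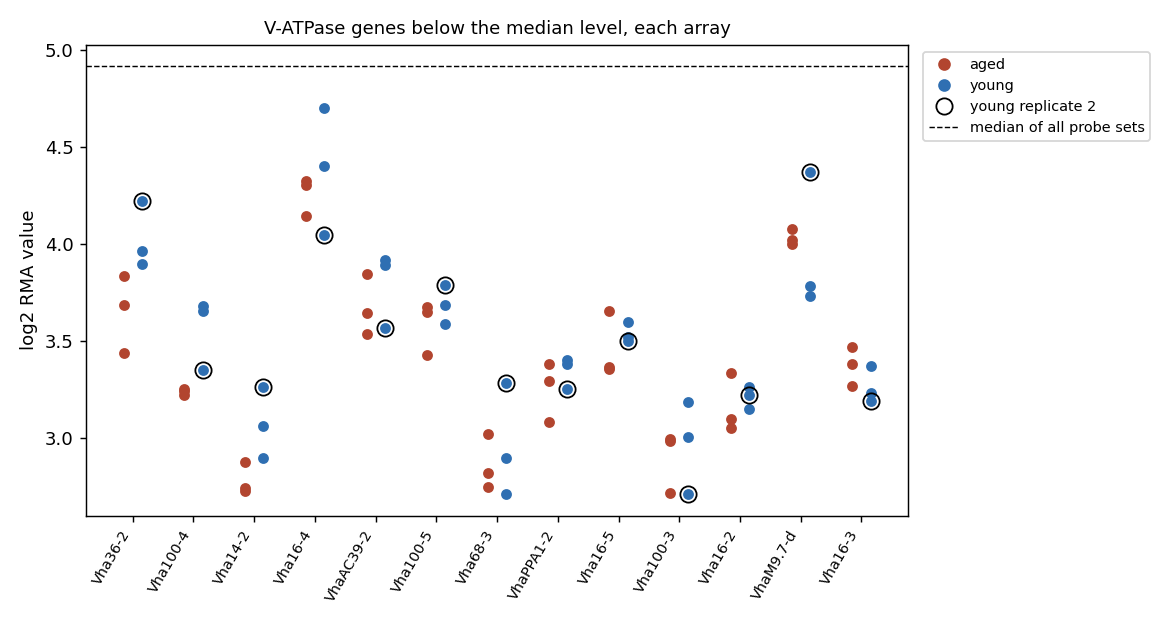
Log2 RMA value (vertical axis) of the 13 dim V-ATPase genes (columns) on the aged (red, left) and young (blue, right) arrays, with young replicate 2 circled and the median of all probe sets, 4.92, as a dashed line. Each value lies below that line, and young replicate 2 is the highest array for 5 of the 13 genes and the lowest for 3.

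Related genes were read from 3 lists, of which every measured member lay at or above the median level, where 14.1% of all genes fell and 23% rose, with a median difference of 0.07. Of 8 measured genes of assembly and regulation, 2 rose and 0 fell, a share near that of all genes at this level. Mitf, whose product activates lysosomal and V-ATPase genes in flies, rose by 0.92 ± 0.11 (adjusted p = 0.0022), with 6.80 ± 0.12 in aged heads and 5.89 ± 0.20 in young heads (SD, n = 3). Lamtor1, of the complex that ties the nutrient sensor mTORC1 to lysosomes, rose by 0.21 ± 0.06 (adjusted p = 0.0469). Rbcn-3B, of the complex that joins V1 to V0, stood at -0.15 ± 0.08 (adjusted p = 0.213). The median difference of this list was 0.21.

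Of 10 measured lysosomal genes, 4 rose and 0 fell, against the 23% and 14.1% above, with a median difference of 0.16. These were ClC-b, a chloride transporter of lysosomes, by 0.45 ± 0.06, the lysosomal permease gene spin by 0.36 ± 0.07, and the protease genes CtsB by 0.36 ± 0.07 and cathD by 0.33 ± 0.06. The membrane protein gene Lamp1 stood at 0.06 ± 0.07 (adjusted p = 0.564). Of 5 vesicular transporters that use the proton gradient of the V-ATPase, 3 fell and 0 rose, against 14.1% and 23%. These were the acetylcholine transporter VAChT by 0.76 ± 0.08, the GABA transporter VGAT by 0.46 ± 0.09 and the monoamine transporter Vmat by 0.43 ± 0.09 on the log2 scale. The glutamate transporter VGlut stood at 0.98 ± 0.29, just short of the threshold (adjusted p = 0.0511), with 7.16 ± 0.28 in aged heads and 6.18 ± 0.61 in young heads (SD, n = 3). The remaining transporter gene, prt, also missed narrowly but with the opposite sign (-0.32 ± 0.10, adjusted p = 0.0533).

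**Figure D4:**
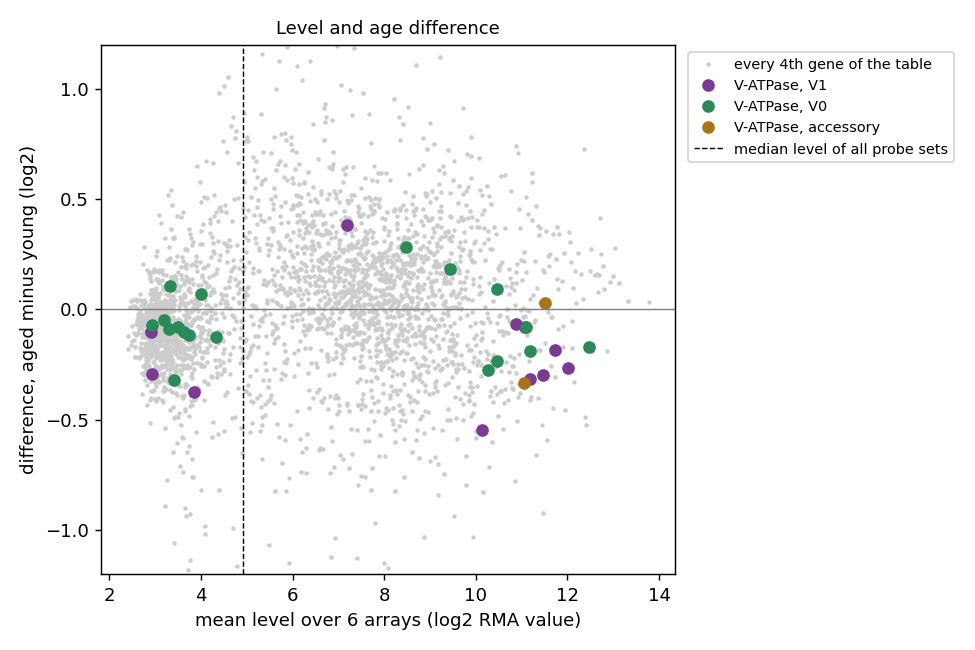
Difference, aged minus young (log2, vertical axis), against the mean level over 6 arrays (log2 RMA value, horizontal axis) for the V-ATPase genes by sector and for every 4th gene of the table in grey; genes beyond the vertical range are not drawn. The bright V-ATPase genes lie mostly below 0, with a median of -0.18 against 0.07 for all genes at or above the dashed median level.

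**Figure D5:**
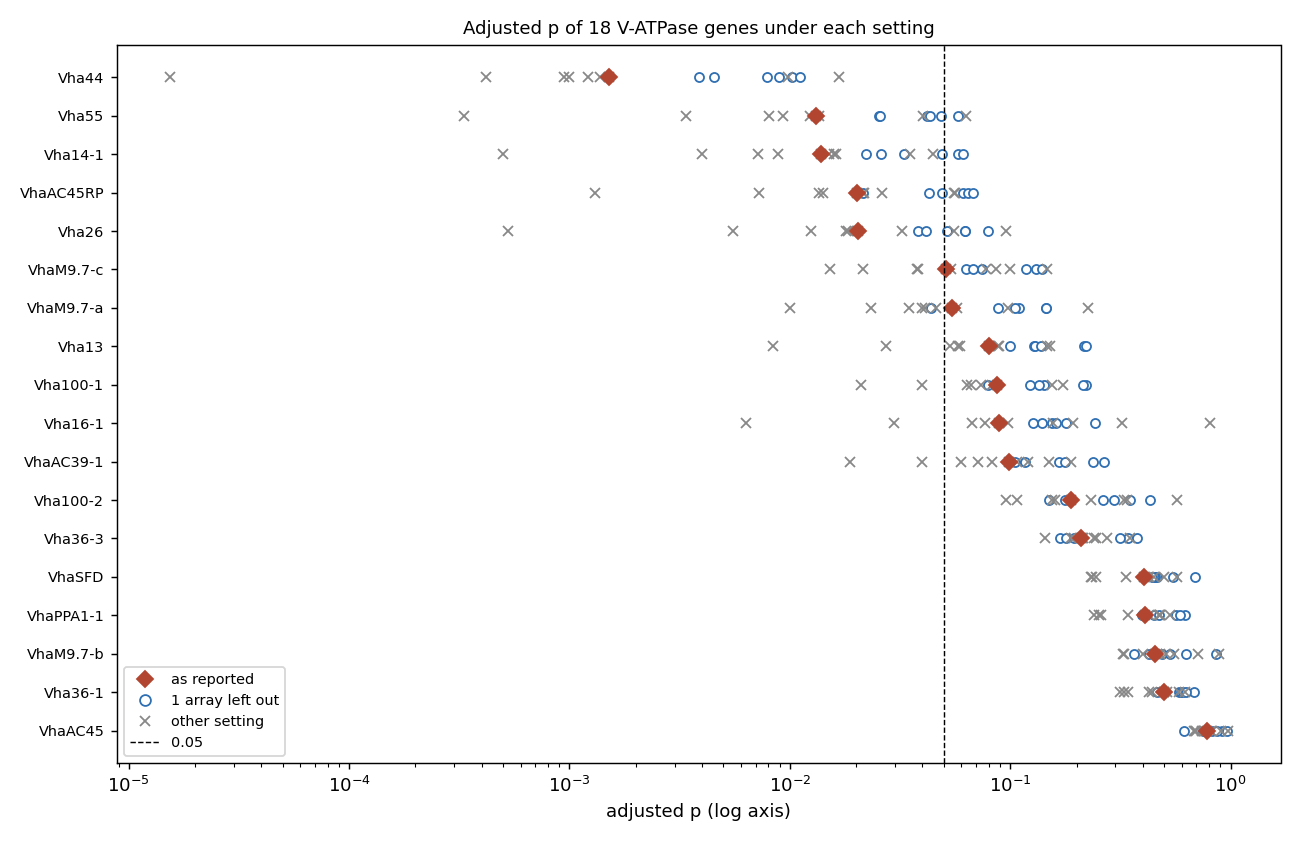
Adjusted p (horizontal log axis) of the 18 bright V-ATPase genes (rows) as reported (diamond), with 1 array left out (open circles) and under the other settings (crosses), with 0.05 as a dashed line. Vha44 lies left of the line under every setting shown, while Vha55, Vha14-1, Vha26 and VhaAC45RP each cross it when certain single arrays are left out.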

How the data were processed

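The deposited values are log2 RMA expression values, normalized by the authors. The submitters' processing notes name RMA and limma; versions, settings and build: not given in the sources used here. Of 18952 probe sets, 183 controls were left out, leaving 18769. The age difference, aged minus young, was fitted in R 4.3.3 using limma 3.58.1 (lmFit, eBayes, all 6 arrays, no covariates), with Benjamini-Hochberg adjustment over all probe sets at 0.05. Symbols came from the platform's probe table, and 31 of 31 members matched RefSeq by gene ID. Members, subunit classes (main and other), related lists and alternatives were chosen with earlier results of these data known. By the naming rule, values on every array are given for main genes and for others that passed; of each related list, all members that passed are named where 5 or fewer did. Further paralogues, and list members that did not pass, were chosen after their values were seen. Of the lists, Rbcn-3A, sky, Tor, RagA-B, Lamtor2, Trpml, Gba1a, Gba1b, Hexo1, Syt1, ninaE, ninaC, Eaat1, Mhc, Uro and Amy-p were not analysed here, having no probe set of their own. Sums over a list are sums of linear values. The Malpighian tubule list (1 of 3 measured genes lower, 0 higher) and the midgut list (0 of 3 passed) are not used further. A planned search for promoter motifs was not run. The scripts were tested on simulated data.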

Additional observations from a re-analysis of the deposited data

How the results depend on the processing

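Direction held for the 5 calls under each of the 16 alternatives in which they were tested, while the number of calls moved. The 5 lower and 0 higher genes became 10 lower and 1 higher with a trended robust prior or with only probe sets at or above the median level. They became 8 lower with arrays centred on their medians, and 2 lower without _s_at and _x_at probe sets, which leaves 25 genes. Of all genes tested, 12.7%, 18.2%, 12.5% and 9.87% were lower in these 4 settings, in that order. Array weights, and the mean of all probe sets of a gene, each gave 7 lower and 1 higher, where 13.2% and 11.6% of all genes were lower. Leaving out 1 array gave 2 to 7 lower and 0 to 1 higher, where 6.23% to 11% of all genes were lower. There were 2 lower without aged replicate 1 or aged replicate 2, 3 lower without aged replicate 3 or young replicate 3, and 1 higher without young replicate 2. Without young replicate 2 and aged replicate 3 together, 3 were lower, against 6.63% of all genes. The replicate numbers did not pair the arrays (r of same-numbered deviations 0.103, -0.0195 and -0.0556). With the replicate block 4 were lower, against 8.62% of all genes, Vha26 and VhaAC45RP no longer passing (adjusted p = 0.0555 for both) and Vha36-2 passing. Median differences of -0.18 (main), -0.10 (other paralogues), -0.27 (V1) and -0.17 (V0) became -0.23, -0.14, -0.31 and -0.22 with centred arrays, where 49% of all gene calls were higher, against 59.6% as reported. With quantile normalization the other paralogues stood at -0.018 and V1 at -0.23. V0 was -0.081 with the probe set of largest spread and -0.11 with the mean of all probe sets, both of which change only Vha16-1, and V1 was -0.13 without _s_at and _x_at probe sets. The other paralogues turned to 0.28 at or above the median level, where 3 genes remain, and were -0.12 without young replicate 2 and aged replicate 3 together. Leaving out 1 array gave -0.19 to -0.16 for main genes, -0.12 to -0.038 for other paralogues, -0.28 to -0.25 for V1 and -0.19 to -0.15 for V0. Where not shown by the construction, the cause was not tested. Signs of genes that did not pass changed in 12 of 477 gene values.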

Other observations

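Most bright V-ATPase genes varied little between arrays of an age. Their residual SD had a median of 0.05 on the log2 scale (0.03 to 0.31, 18 genes), and the moderated SD behind the reported p-values had a median of 0.08, against 0.06 with a trended robust prior. Vha36-3 (0.311 against 0.24) and Vha100-2 (0.109 against 0.108) had a residual SD above the moderated one. For Vha16-1 these were 0.03, 0.08 and 0.05, and the adjusted p was 0.0886 as reported and 0.00634 with the trended robust prior. With that prior, Vha13, Vha100-1, Vha16-1, VhaAC39-1 and VhaM9.7-a also passed as lower and VhaM9.7-c as higher. The trend and the robust estimation were changed together, and their separate effects were not tested.

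Aged replicate 2 was the lowest of the 6 arrays for 10 of the 18 bright genes, among them Vha44, Vha55, Vha26, Vha14-1, Vha13 and Vha16-1. Aged replicate 3 was the lowest for Vha100-1, VhaM9.7-a, VhaAC45RP and Vha36-1 and the highest for Vha100-2, VhaM9.7-b, VhaM9.7-c, Vha36-3 and VhaAC45.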
